A study of Mus musculus with 13 samples.

Results

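The genes described here encode the potassium channels and the voltage-gated sodium and calcium channels of the mouse, together with their auxiliary subunits. They were chosen by symbol alone: Kcn followed by letters and a number, Scn followed by a number and a or b, and the Cacna1, Cacna2d, Cacnb and Cacng series. This rule found 131 of the 34745 genes in the deposited table, of which 92 were potassium, 13 sodium and 26 calcium channel genes. The sodium channel listed as Scn2a1, the epithelial sodium channel genes Scnn1a, Scnn1b and Scnn1g, Kcne1l and Kcnrg fall outside the rule and are not counted. RNA was sequenced from the olfactory bulb of wild-type C57BL/6 mice labelled as 7 to 8 weeks old, in 13 libraries. A 1st set held 4 control libraries (treatment labelled none) and 3 from mice exposed to fine particulate matter (PM2.5, the fine fraction of airborne particles) at a low dose labelled 3 mg/kg. A 2nd set held 3 control libraries and 3 at a high dose labelled 10 mg/kg. Both dose labels add "/3 day", and neither the meaning of that entry, the route of exposure nor what separates the sets is given in the sources used here. Nothing in the labels says how the numbered samples of a group were obtained; the p-values then speak only of variation among these samples, which may be partly technical.

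The libraries held 13.03 to 16.34 M counts, except control replicate 2 (26.99 M) and the high dose libraries (20.23 to 25.55 M) of the 2nd set. Channel genes made up 1.04 to 1.25% of the counts. Markers of the olfactory bulb were present throughout: 5 mitral and tufted cell markers summed to 2093 to 2609 CPM (counts relative to the TMM-adjusted library size) and 6 granule cell and interneuron markers to 3526 to 4792 CPM. The series is labelled as male, but all 7 libraries of the 1st set held Xist, the transcript of the inactive X chromosome, at 2280 to 2784 CPM, and the sum of 4 Y-linked genes was at most 0.213 CPM there. In the 2nd set Xist stood at 0.0977 to 0.551 CPM and the Y-linked sum at 173 to 226 CPM. The CPM values of Xist and the Y-linked genes are relative to the library total without the TMM adjustment. The 1st set thus goes against the male label, and sex, set and dose cannot be told apart in any comparison across the sets. Control replicate 2 and high dose replicate 3 of the 2nd set, the deepest libraries, stood apart from their groups. Their pairs with other libraries of the group gave a chi-square per gene of 28.2 to 43.5. All other pairs within a group gave 5.79 to 17.4. This chi-square was taken on raw counts and not scaled for depth, and the part of depth in it was not tested.

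Ion channels set how neurons rest, fire and release transmitter. Sodium channels carry the upstroke of the action potential, voltage-gated potassium channels repolarize the membrane and time repetitive firing, inward rectifier and two-pore potassium channels hold the resting potential, and calcium channels couple depolarization to transmitter release and gene regulation. Pore-forming subunits assemble with auxiliary subunits that steer trafficking and gating. In the olfactory bulb, mitral and tufted cells relay sensory input under inhibition by granule and periglomerular cells, and all of these cells use members of each channel class. Glia add channels of their own, chiefly the inward rectifier Kcnj10, which clears extracellular potassium around active neurons.

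On the length-scaled FPKM values (counts scaled by library depth and gene length) that the authors deposited, 93 of the 131 channel genes averaged at least 1 FPKM over the 13 libraries and 46 at least 10 FPKM. The summed level of all channel genes was 1599 to 1714 FPKM per library. The most abundant channel transcript was Kcnj4, a strong inward rectifier of forebrain neurons, at a mean of 110 FPKM. It was followed by Cacnb3, a cytoplasmic calcium channel beta subunit, at 101 FPKM and by Cacng7, a transmembrane protein of the gamma family that also regulates AMPA receptors, at 86.0 FPKM. Kcnf1, a silent subunit that makes no channel alone, averaged 73.9 FPKM and was far above the next of the modifier subunits, Kcnv1 at 8.74 FPKM. Kcnj10 averaged 73.3 FPKM. Ranges over the libraries overlapped between neighbours in this order, for example 85.9 to 124 FPKM for Kcnj4 and 89.1 to 124 FPKM for Cacnb3.

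Pore-forming voltage-gated potassium genes (Kcna, Kcnb, Kcnc, Kcnd, Kcnh and Kcnq) were the largest family by summed level, at 24.3 to 27.7% of the summed channel FPKM. They were also the family with the most members, 30 of the 131 genes. They were led by Kcnd2, which carries somatodendritic A-type current, at 58.8 FPKM and by Kcnh3, a channel of the ether-a-go-go-like group, at 58.4 FPKM. Inward rectifiers made up 13.3 to 15.8% and calcium gamma subunits, with Cacng5 in second place at 37.5 FPKM, 10 to 11.4%. The calcium alpha1 pores were led by the T-type gene Cacna1i at 34.6 FPKM and the L-type gene Cacna1d at 30.4 FPKM. Sodium alpha pores were sparse at 1.36 to 2.0% of the sum, with Scn3a at 11.7 FPKM and Scn8a, the channel of axon initial segments, at 7.99 FPKM; Scn2a1 is not among them. Among potassium auxiliary subunits Kcnab3, a cytoplasmic beta subunit, averaged 44.2 FPKM and Kcnip2, a calcium-binding partner of the Kcnd channels, 22.0 FPKM. The two-pore leak channels Kcnk1 and Kcnk9 averaged 24.1 and 16.4 FPKM, and the calcium-activated Kcnma1 and the sodium-activated Kcnt1 averaged 20.8 and 7.47 FPKM. Second-ranked or leading members of the remaining families were Scn2b at 14.6 FPKM, Cacnb4 at 21.0 FPKM, and the alpha2delta subunits Cacna2d1 at 17.8 and Cacna2d3 at 6.21 FPKM.

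**Figure D1:**
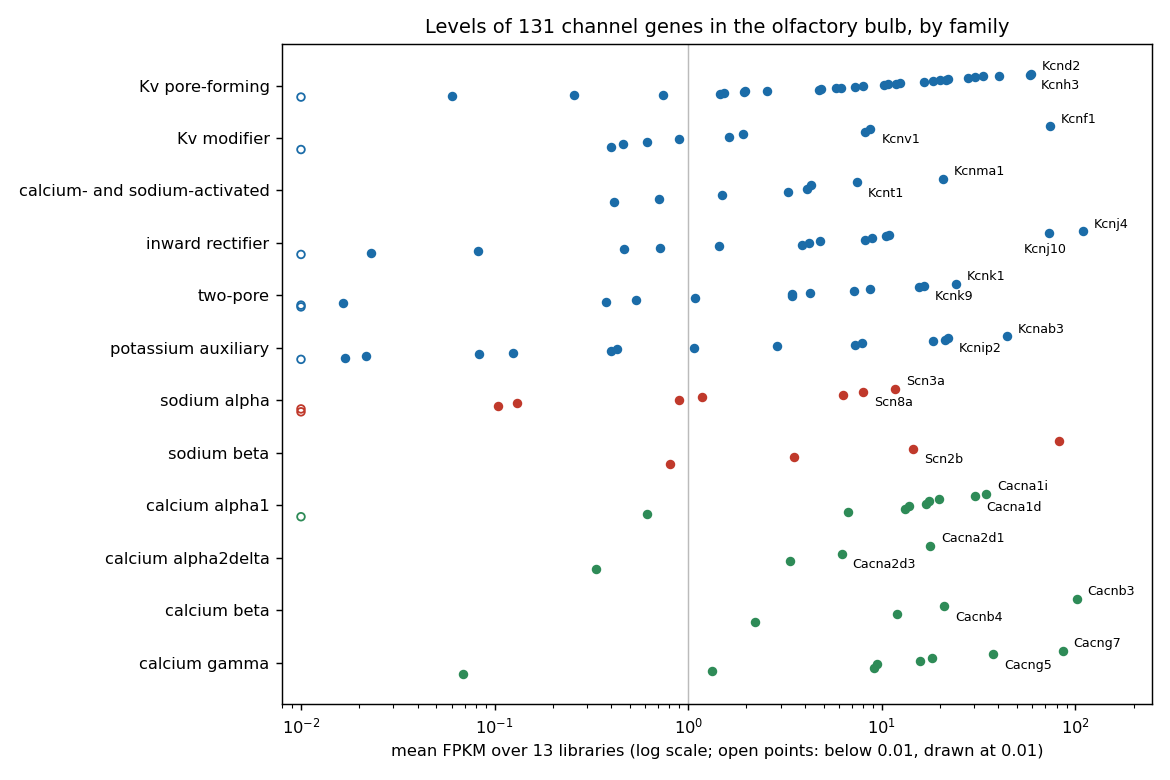
Mean FPKM over the 13 libraries (horizontal, log scale) of each of the 131 channel genes (points), in rows by family, with leading genes of the families named; open points lie below 0.01 FPKM and the grey line marks 1 FPKM. Kcnj4 (110 FPKM) and Cacnb3 (101 FPKM) lie furthest right, and the sodium alpha genes end at 11.7 FPKM.

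At the other end, 16 channel genes did not pass the filter on low counts, and the remaining 115 were tested. Those left out include Scn4a, Cacng1 and Cacna1f, known from skeletal muscle and retina, and Scn11a of sensory ganglia; none of the 16 reached more than 10 counts in any library, and 2 had no count in any. Because the filter depends on the counts, the 115 are not all members, and the counts below are read against the same filter over all 17467 genes that passed it. All 131 genes were found in GENCODE M21 (GRCm38), 91 with identical coordinates, and 60 overlap a gene on the opposite strand. Whether the counting used strand is not given in the sources used here, so reads of such partners may be counted together; this holds for many of the genes named, among them Kcnh3, Cacnb2 and Cacna2d2, and Kcnip1, whose opposite strand carries the channel gene Kcnmb1. Kcnh8, Kcna4 and Kcnj10 overlap no gene on the opposite strand in that annotation.

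At the low dose no channel gene passed the test. With edgeR's quasi-likelihood test and Benjamini-Hochberg adjustment over all genes, 0 of 115 channel genes were called, beside 0 of all 17467 genes (0%). At an unadjusted p under 0.05, 2 channel genes (1.74%) stood out, beside 2.46% of all genes. DESeq2 and limma also called 0 channel genes, while they called 19 and 2 of all genes. All channel genes together had a median log2 fold change of 0.012, beside 0.002 over all genes.

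The genes with the smallest p at the low dose are given as values only, since each had an adjusted p of 1. Scn1a, the sodium channel of fast-spiking interneurons, stood at 138, 148, 152 and 154 CPM in the controls of the 1st set and at 194, 194 and 161 CPM at the low dose (log2 fold change 0.31 ± 0.13 SE). All 3 exposed libraries lay above the 4 controls. Kcnip1, a calcium-binding Kcnd partner, stood at 64.1, 63.0, 68.8 and 70.2 CPM in the controls and at 83.7, 77.9 and 73.2 CPM at the low dose (0.23 ± 0.10), again without overlap. Cacng6, another gamma subunit, was at 2.69 to 3.17 CPM in the controls and at 3.05 to 4.54 CPM at the low dose (0.37 ± 0.21).

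On the lower side, Cacng4, a gamma subunit that traffics AMPA receptors, stood at 62.7 to 70.5 CPM in the controls and 59.7 to 61.8 CPM at the low dose (-0.13 ± 0.08), without overlap. Kcnh8 (-0.28 ± 0.14), the delayed rectifier Kcna5 (-0.19 ± 0.12) and the beta subunit Scn2b (-0.20 ± 0.13) overlapped their controls: Kcna5 stood at 15.0 to 18.7 CPM in controls and 13.6 to 17.1 CPM at the low dose. Over all 115 channel genes, the exposed libraries lay entirely above the controls for 4 genes (Kcna3, Cacna1c, Kcnip1 and Scn1a) and entirely below for 1 (Cacng4). Over all genes tested this separation held for 3.71% above and 2.91% below.

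At the high dose 2 channel genes fell, both pore-forming voltage-gated potassium channels: Kcnh8 and Kcna4. No channel gene was called higher. The 2 calls are 1.74% of the channel genes tested, beside 0.641% of all genes called in either direction and 0.12% called lower. At an unadjusted p under 0.05 the high dose separated 19 channel genes (16.5%), beside 9.65% of all genes.

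Kcnh8 (ENSMUSG00000035580, chr17:52602709-52979194, plus strand, GRCm38) encodes a slowly activating channel of the ether-a-go-go-like group, which opens near the resting potential of neurons. It was measured at 10.1, 10.1 and 11.4 CPM in the 2nd set's controls and at 5.76, 5.13 and 5.67 CPM at the high dose. Each exposed library lay below each control of either set, the lowest of which was 7.67 CPM. The group means were 10.5 ± 0.77 CPM (SD, n = 3) and 5.52 ± 0.34 CPM (SD, n = 3); the log2 fold change was -0.93 ± 0.15 (SE) with an adjusted p of 0.0101 by edgeR's quasi-likelihood test. Behind these values were 102 to 260 counts per library. In the 1st set the gene stood at 9.22, 7.67, 8.80 and 10.6 CPM in controls and at 7.08, 7.42 and 7.93 CPM at the low dose, which overlap. The call was lost without control replicate 3 of the 2nd set (adjusted p = 0.0540) and in a fit of the 2nd set alone (adjusted p = 0.189), with log2 fold changes of -0.87 and -0.93.

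Kcna4 (ENSMUSG00000042604, chr2:107290639-107298502, plus strand) encodes a rapidly inactivating A-type channel of axons and terminals. Its controls were at 170.5, 148 and 192 CPM and its high dose libraries at 128, 132 and 110 CPM. The groups do not overlap, and the exposed libraries also lay below the 158 to 174 CPM of all 7 libraries of the 1st set. The means were 170.2 ± 22.15 CPM (SD, n = 3) and 123 ± 12.04 CPM (SD, n = 3); the log2 fold change was -0.46 ± 0.10 with an adjusted p of 0.0475 by edgeR's quasi-likelihood test. This call lies at the threshold: leaving out any 1 library other than control replicate 2 of the 2nd set raised the adjusted p to between 0.0635 and 0.185, with the log2 fold change between -0.37 and -0.52. Without both libraries that stood apart, an alternative chosen after seeing the data, the adjusted p of the same test was 0.0125 for Kcna4 and 0.0240 for Kcnh8. With a block for the replicate number neither gene was called.

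The promoter windows of the 2 called genes are shown as the regulatory sequence at the start of each gene that fell. RefSeq (GRCm38.p6) places the window of Kcnh8, from 250 bases before to 50 after its start, at chr17:52602459-52602758 and that of Kcna4 at chr2:107290339-107290638, both on the plus strand. Capitals mark matches on either strand to GCGTG, the core of the xenobiotic response element, or to GGGCGG, the SP1 box.
Kcnh8: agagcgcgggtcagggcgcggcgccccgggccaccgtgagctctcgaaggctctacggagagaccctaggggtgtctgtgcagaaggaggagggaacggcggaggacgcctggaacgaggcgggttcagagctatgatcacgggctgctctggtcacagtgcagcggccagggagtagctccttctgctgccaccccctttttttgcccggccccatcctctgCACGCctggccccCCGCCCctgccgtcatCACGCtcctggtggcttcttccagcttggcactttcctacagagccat
Kcna4: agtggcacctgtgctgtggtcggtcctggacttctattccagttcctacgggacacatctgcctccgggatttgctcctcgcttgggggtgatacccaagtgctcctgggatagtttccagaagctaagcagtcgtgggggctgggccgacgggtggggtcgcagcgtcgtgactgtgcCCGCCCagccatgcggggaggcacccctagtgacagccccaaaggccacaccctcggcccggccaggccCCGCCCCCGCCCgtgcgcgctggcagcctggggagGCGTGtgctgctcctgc
Counting the RefSeq start base as 0, Kcnh8 holds the GCGTG core at -27 and 2 and the GGGCGG box at -14, and Kcna4 holds GCGTG at 33 and GGGCGG at -71, -2 and 4. For Kcnh8 the RefSeq start is the first base of the locus given above. The Kcna4 window ends just before the locus given above begins, so all its listed positions lie upstream of that locus. These letters are common: GCGTG occurs in 32.4% and GGGCGG in 35.7% of all 32851 promoter windows of this length. Of the 131 channel genes 96 had a window, and their 131 windows held GCGTG in 35.9% and GGGCGG in 45.8%. TATAAA was found in 4.58% of the channel windows, beside 13.6% of all windows, and TGANTCA, the AP-1 site, in 3.82% beside 7.81%. Neither TGACGTCA, the cyclic AMP response element, nor the NF-kappaB site was found in a channel window, beside 1.79% and 1.63% of all windows. A match is a description of letters and not of binding.

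Kcnj10 (ENSMUSG00000044708, chr1:172341210-172374085, plus strand), the potassium-buffering channel of astrocytes, came next. Its controls in the 2nd set were at 496, 355 and 391.7 CPM, and its exposed libraries at 325, 306 and 269 CPM. The groups do not overlap, although the controls spread widely. The log2 fold change was -0.47 ± 0.11 and did not pass (adjusted p = 0.0791, edgeR's quasi-likelihood test); DESeq2's Wald test called it (adjusted p = 0.0132), as did the fit without both libraries that stood apart (adjusted p = 0.0371). Other astrocyte markers did not share its direction: all 5 of 5 (Aqp4, Aldh1l1, Slc1a3, Gja1 and Gfap) had positive log2 fold changes, and Gfap rose, with a log2 fold change of 1.36. The astrocyte markers summed to 1134 to 1407 CPM in the controls and 1663 to 1833 CPM at the high dose. Without Gfap the other 4 summed to 952.9 to 1203 CPM and 1140 to 1232 CPM, and these ranges overlap. In whole tissue, fewer cells of a type and less RNA per cell cannot be told apart.

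Several other channel genes separated the high dose from its controls without passing the test. Kcnip2 stood at 132, 140 and 141 CPM in the controls and at 112, 118 and 113 CPM at the high dose (log2 fold change -0.27 ± 0.07, adjusted p = 0.152). Cacng5, a gamma subunit that regulates AMPA receptors, stood at 293, 306 and 284 CPM and at 237, 268 and 232 CPM (-0.26 ± 0.07, adjusted p = 0.167). Both had every exposed library below every control. In the other direction Kcna1, an axonal low-threshold channel that limits repetitive firing, stood at 80.7, 63.2 and 76.7 CPM in the controls and at 97.1, 85.9 and 91.6 CPM at the high dose (0.32 ± 0.09, adjusted p = 0.171). Kcna3, a channel prominent in olfactory bulb mitral cells, had controls of 17.7, 20.8 and 16.5 CPM and exposed libraries of 25.6, 20.7 and 23.4 CPM (0.34 ± 0.12, adjusted p = 0.339). The ranges of Kcna3 just overlap and those of Kcna1 do not. Thus 3 members of the Kcna group are named with different signs, and the difference between them was not tested.

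The silent subunit Kcng3 was at 1.38, 0.889 and 0.802 CPM in the controls and at 2.33, 1.36 and 2.15 CPM at the high dose (0.94 ± 0.31, adjusted p = 0.243), with overlap at a low count. Cacna2d2, an alpha2delta subunit that raises calcium channel density, stood at 33.7, 21.8 and 21.8 CPM and at 33.5, 32.9 and 34.7 CPM (0.39 ± 0.14, adjusted p = 0.340). The exposed libraries were close together and only the controls varied; without control replicate 1 of the 2nd set the gene was called, with a log2 fold change of 0.64. Over all 115 channel genes the exposed libraries lay entirely above the controls for 6 genes and entirely below for 11, beside 6.08% and 4.36% of all genes. The 6 were Kcna1, Kcnq1, Kcnj12, Scn7a, Scn9a and Kcnk6, and the 11 were Kcns2, Kcna4, Kcnd2, Kcnh8, Cacng5, Cacng6, Kcnj10, Kcnj2, Kcnip2, Kcnk10 and Kcnk3. These names were taken after the values were seen.

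**Figure D2:**
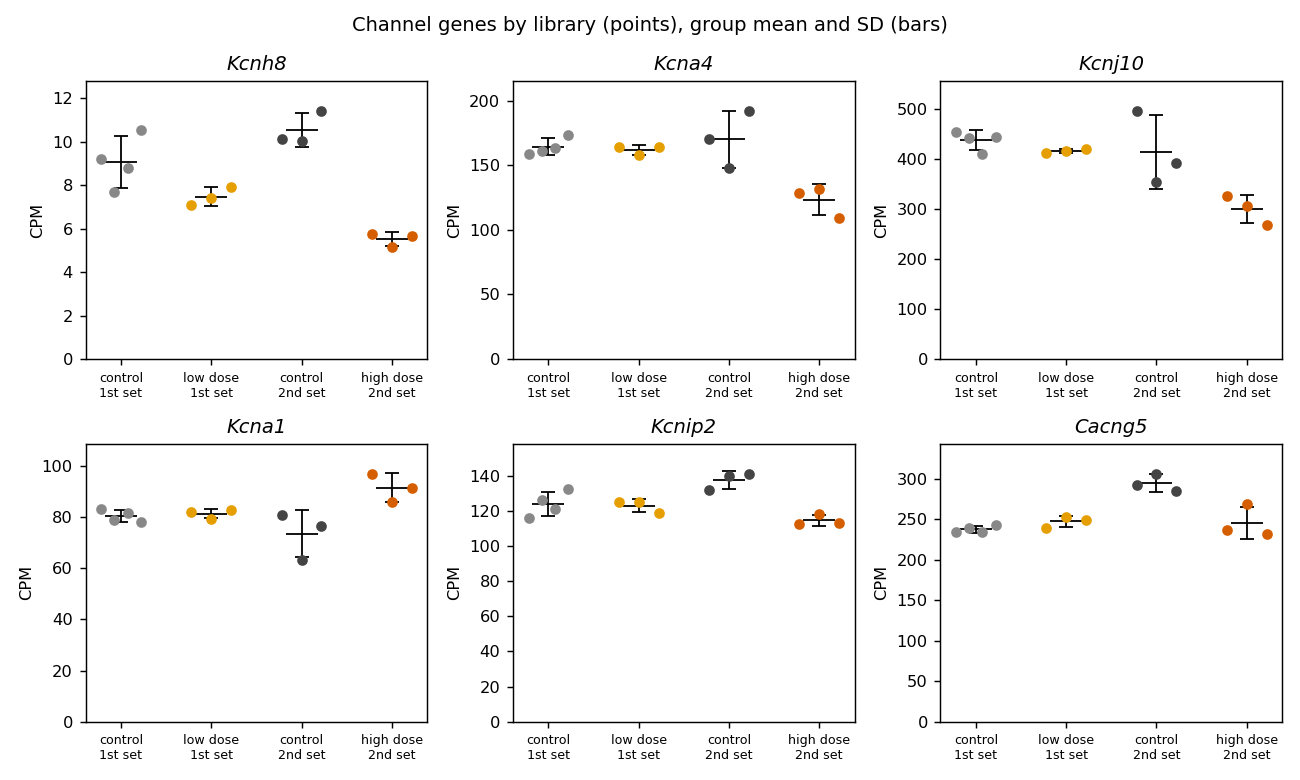
CPM (vertical, from 0) of 6 channel genes in each library (points) of the 4 groups, with group means and SD (bars). Kcnh8 and Kcna4 lie lower at the high dose than in all other libraries; the 3 high dose libraries of Kcnh8 sit between 5.13 and 5.76 CPM.

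No channel gene passed the test of the high dose response minus the low dose response (0 of 115, beside 1 of all 17467 genes, 0.00573%), with edgeR, DESeq2 or limma. At an unadjusted p under 0.05 this difference separated 16 channel genes (13.9%), beside 5.99% of all genes. For Kcnh8 the difference of responses was -0.65 ± 0.20 (adjusted p = 0.642) and for Kcna4 -0.44 ± 0.13 (adjusted p = 0.593). Kcnip1 had log2 fold changes of 0.23 at the low and -0.30 at the high dose, and Scn1a of 0.31 and -0.24. Their differences of -0.53 ± 0.15 and -0.55 ± 0.19 had adjusted p of 0.577 and 0.709. A response to the low dose alone, to the high dose alone or a difference between them is therefore not shown for any single channel gene by this test, and dose and set cannot be told apart in it.

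By family, the centres of the distributions moved little. At the low dose the family medians of the log2 fold change ran from -0.09 for sodium beta to 0.10 for two-pore genes, and at the high dose from -0.21 for potassium auxiliary to 0.18 for sodium beta. The sodium beta value was 0.015 without high dose replicate 3 of the 2nd set and 0.30 without control replicate 2. Over all genes the medians were 0.002 and -0.012. The pore-forming voltage-gated potassium family, which held both calls, had medians of 0.011 and -0.046, with 16 of 28 and 13 of 28 genes above 0. Two-pore genes, which carry leak current, were above 0 in 9 of 11 at the low dose (median 0.10) and below 0 in 9 of 11 at the high dose (median -0.02). Calcium alpha1 genes were below 0 in 8 of 9 at the high dose, with a median of -0.10, and in 3 of 9 at the low dose, with a median of 0.01. The high dose median changed sign without high dose replicate 3 (0.05) or without control replicate 3 (0.02) of the 2nd set. Their gamma relatives were below 0 in 6 of 7 at the high dose (median -0.07), while all 4 alpha2delta genes were above 0 (median 0.09). These are counts of genes measured in the same libraries and not of independent replicates, and no member of these calcium families or of the two-pore family was called at either dose.

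**Figure D3:**
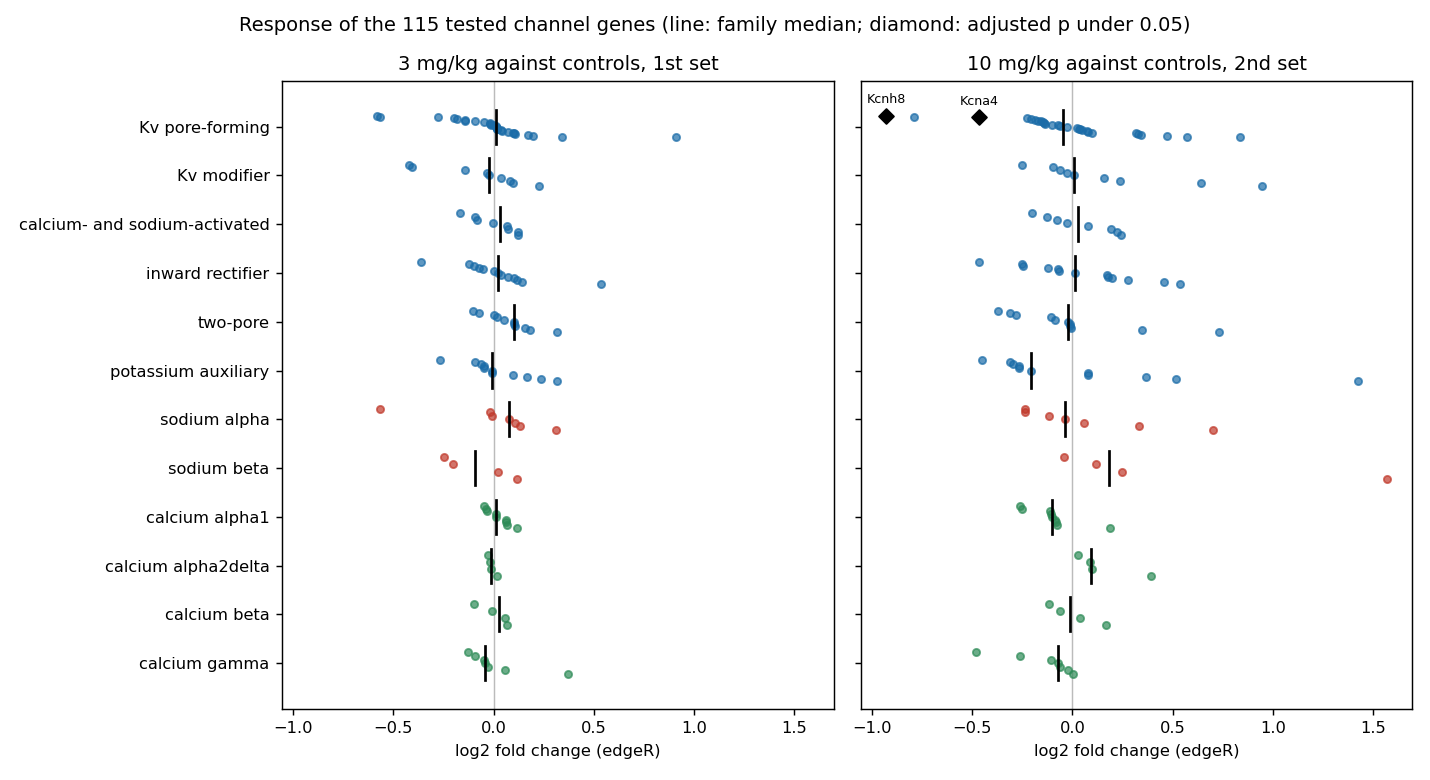
Log2 fold change (horizontal) of each of the 115 tested channel genes (points) at the low dose (left) and the high dose (right) against the controls of the same set, in rows by family; vertical bars are family medians and diamonds mark genes called at an adjusted p under 0.05. The 2 diamonds, Kcnh8 and Kcna4, are in the pore-forming voltage-gated potassium row of the high dose panel.

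The family values at the high dose also moved with the libraries that stood apart. The summed level of the calcium alpha1 genes was 112 FPKM in control replicate 2 and 107 FPKM in high dose replicate 3 of the 2nd set, and 141 to 175 FPKM in the other 11 libraries. The sodium beta sum was 128 and 148 FPKM in those libraries and 83.6 to 103 FPKM elsewhere. Longer channel genes tended to be lower there: the calcium alpha1 genes have a median implied transcript length of 14.9 kb and the gamma genes of 3.68 kb. For each library, the deviation from the mean of the other libraries of its group was taken. Across the 115 channel genes, its Spearman correlation with implied length was -0.388 and -0.476 in the libraries that stood apart. It was -0.219 to 0.311 in the other 11 libraries. Over all 17467 genes tested the values were -0.233 and -0.182 in the libraries that stood apart, and -0.0716 to 0.182 in the others. These are descriptions across genes of 1 library each. Across the 115 channel genes, the correlation of implied length with the high dose log2 fold change was -0.0216, and 0.0328 without both libraries. Leaving out both libraries moved the high dose median of the alpha2delta genes to 0.17, of the gamma genes to -0.13, of the two-pore genes to -0.14, of the potassium auxiliary genes to -0.04 and of the sodium beta genes to 0.067. The alpha1 median was then -0.087.

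High dose replicate 3 also stood apart in the beta subunit Scn4b, which is abundant in striatum. Scn4b was at 3.82, 2.32 and 1.60 CPM in the 2nd set's controls and at 2.18, 2.92 and 17.5 CPM at the high dose (log2 fold change 1.57 ± 0.72, adjusted p = 0.522). Kcnab1, a potassium channel beta subunit, was at 13.2, 12.8 and 8.89 CPM and at 11.8, 12.3 and 25.7 CPM (0.52 ± 0.27, adjusted p = 0.588). In both genes replicate 3 alone lies above all controls. In that library 7 markers of neighbouring cortex and striatum (Drd1 and Ppp1r1b among them) summed to 90.05 CPM, and to 42.6 to 57.1 CPM in the other 12; none of the 7 was at 0 in every library, 5 of 7 had a positive log2 fold change at the high dose and none was called. Their part in the values of Scn4b and Kcnab1 was not tested.

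**Figure D4:**
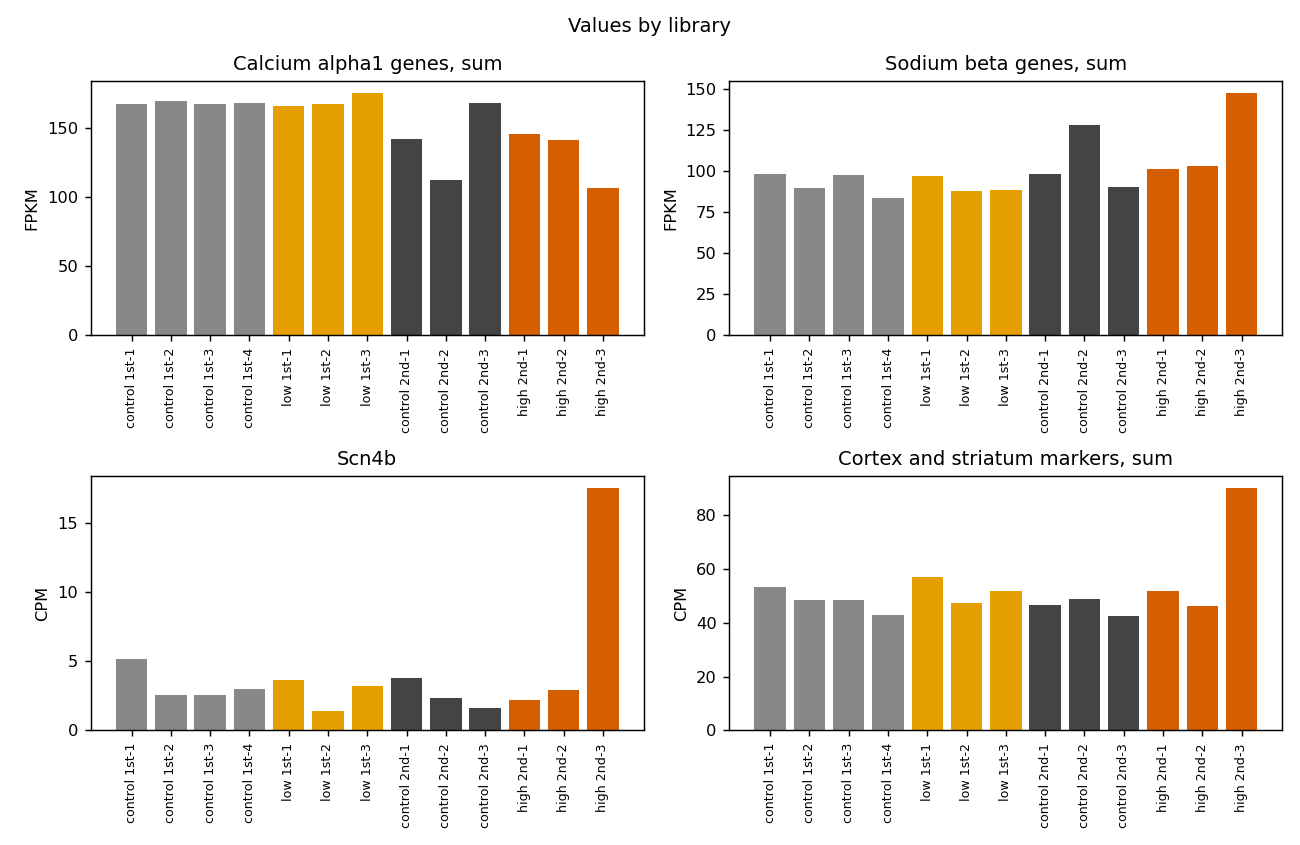
Summed FPKM of the calcium alpha1 genes and of the sodium beta genes, CPM of Scn4b, and summed CPM of 7 cortex and striatum markers (vertical axes from 0) in each of the 13 libraries (bars, coloured by group). Control replicate 2 and high dose replicate 3 of the 2nd set have the lowest alpha1 sums (112 and 107 FPKM), and high dose replicate 3 the highest Scn4b (17.5 CPM) and marker sum (90.05 CPM).

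The unexposed controls of the sets differed from each other in more channel genes than either dose did from its controls. Of 115 channel genes 28 were called between the controls of the 2nd and of the 1st set, 15 higher and 13 lower in the 2nd (24.3%, beside 19.3% of all genes, 10.5% higher and 8.74% lower). Libraries of one control group lay entirely above those of the other for 21 channel genes higher in the 2nd set and 18 lower, beside 15.8% and 14.6% of all genes. The share of channel genes called is thus near that of all genes. Implied length correlated with this log2 fold change at -0.199 across the 115 channel genes and at -0.147 over all genes, longer genes tending to be lower in the 2nd set. The part of length in the calls was not tested. The 2nd set controls also serve the high dose comparison, so the values below share libraries with it.

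Genes lower in the 2nd set came from 10 families. Kcng3 had a log2 fold change of -1.33 ± 0.29, from 1.89 to 3.00 CPM in the 1st set to 0.802 to 1.38 CPM in the 2nd. Cacna2d2 stood at 43.1 to 47.2 CPM and at 21.8 to 33.7 CPM (-0.82 ± 0.14). Neither pair of ranges overlaps. The others named were the two-pore gene Kcnk5 (-0.99), the ether-a-go-go-related genes Kcnh6 (-0.90) and Kcnh7 (-0.38), the sodium-sensing glial channel Scn7a (-0.66), the inward rectifier Kcnj12 (-0.53), the N-type channel Cacna1b (-0.45), the beta subunit Cacnb2 (-0.43), the small-conductance calcium-activated Kcnn3 (-0.38), Cacng4 (-0.26) and the A-type Kcnd1 (-0.38). Kcnd1 lies on the X chromosome (chrX:7822289-7838280). Sex transcripts separate the same groups, and their part was not tested.

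The genes higher in the 2nd set included 4 of the 11 tested two-pore genes, 3 of the 7 gamma genes and 3 of the 9 silent or modifying voltage-gated subunits. The pore-forming voltage-gated potassium genes gave 2 of 28, and no sodium alpha or calcium alpha1 gene was called higher. Of all genes 10.5% were called higher and 8.74% lower. Differences between families were not tested. Kcnk12, a silent member of the halothane-inhibited group, measured 18.6 to 27.7 CPM in the 1st set controls and 34.4 to 42.7 CPM in the 2nd (0.78 ± 0.14), and its relative Kcnk13, known from microglia, had a log2 fold change of 0.45. Kcnk15 stood at 6.66 to 12.02 CPM and 12.3 to 18.1 CPM (0.81 ± 0.20), and Kcnk1 at 44.1 to 48.5 and 54.8 to 79.0 CPM (0.45 ± 0.13). All 4 of these genes were higher in each 2nd set control than in each 1st set control, a separation that held for 15.8% of all genes. The silent subunits called higher were Kcnf1, at 286 to 322 CPM and 381 to 433 CPM (0.43 ± 0.08), Kcns2 (0.46) and Kcnv1 (0.44). The silent subunit Kcng3 was called lower, and the median of the 9 was 0.013. The A-type complex genes Kcnip1 (0.48) and Kcnd2 (0.24), Kcnab3 (0.38), Kcnh3 (0.33), Cacnb3 (0.33), and the gamma genes Cacng6 (0.78), Cacng8 (0.32) and Cacng5 (0.31) completed the list. Alongside, 4 of 5 neuron markers were called higher in the 2nd set (sums of 3145 to 3345 against 3685 to 4378 CPM), and 3 of 4 pericyte and smooth muscle markers (159 to 185 against 97.1 to 149 CPM) and 2 of 4 endothelial markers were called lower; their part in the channel values was not tested. Without control replicate 2 of the 2nd set 12 channel genes were called, and without control replicate 1 or 2 of the 1st set 18.

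**Figure D5:**
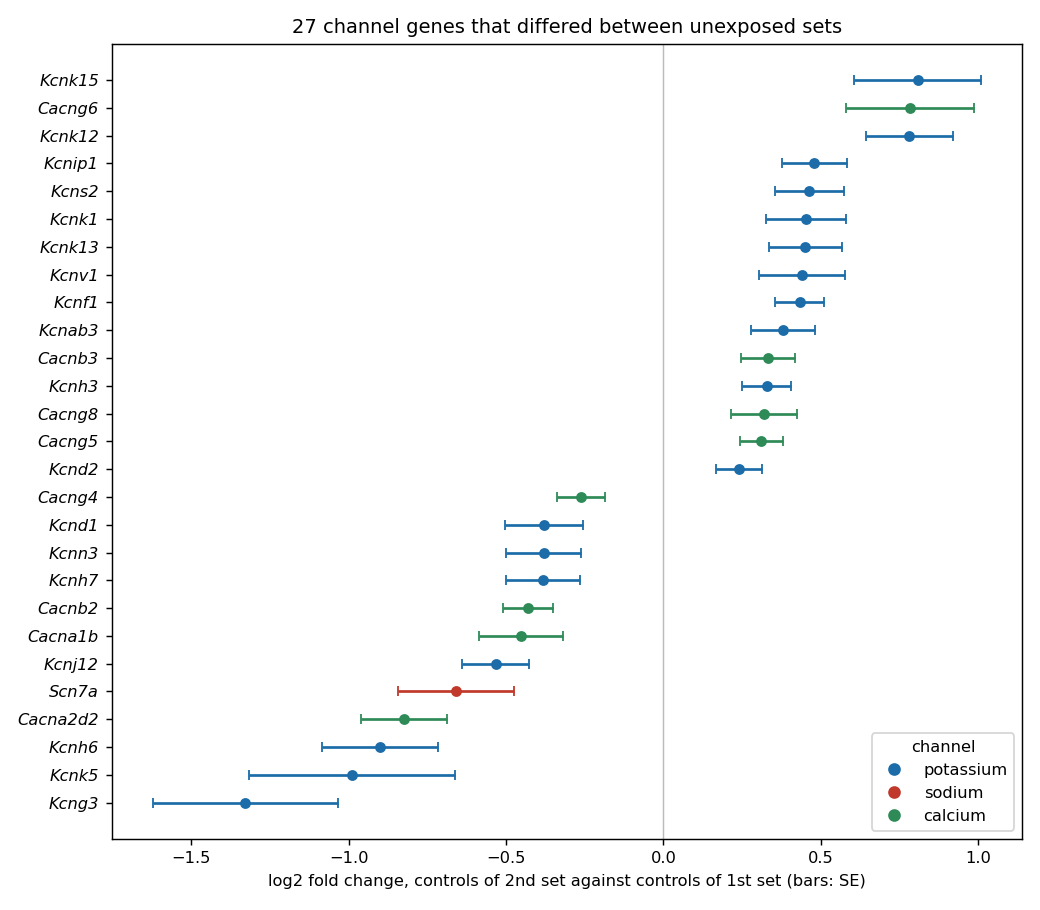
Log2 fold change (horizontal, bars: SE) of 27 channel genes called between the controls of the 2nd set (n = 3) and the controls of the 1st set (n = 4), coloured by ion. Kcnk15 (0.81) and Kcng3 (-1.33) mark the ends, and the sodium channel gene in the plot, Scn7a, is on the lower side.

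Several genes named at the high dose had the opposite sign in this comparison, which shares the 2nd set controls. Kcng3 had log2 fold changes of -1.33 between the controls and 0.94 at the high dose, and Cacna2d2 of -0.82 and 0.39. Cacng5 had 0.31 and -0.26, Cacng6 0.78 and -0.48, and Kcnip1 0.48 and -0.30. For these genes the high dose mean lay nearer to the mean of the 1st set controls than the mean of the 2nd set controls did, and a deviation of the shared controls cannot be told apart from a response. Kcnh8 and Kcna4 were not called between the control sets.

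Genes that work with these channels were also described. Of 28 cation and leak channel genes such as the Hcn, Trp and Nalcn genes 24 were tested, of 13 chloride channel genes 12, and of 30 anchors and partners such as Ank3, Dpp6 and the Fgf12 group 28. None of the 3 lists held a called gene at either dose. Their median log2 fold changes were -0.05, 0.02 and -0.01 at the low dose and 0.03, -0.07 and -0.03 at the high dose. Between the control sets 4 genes of each list were called (4 of 24, 4 of 12 and 4 of 28), beside 19.3% of all genes. Among them was Kctd12, a GABA-B receptor subunit, with a log2 fold change of -0.91. Granule cell and interneuron markers were below 0 in 6 of 6 genes at the high dose (median -0.16, none called) beside the falls of Kcnh8 and Kcna4, and their part in those values was not tested. The same 6 markers were all above 0 at the low dose (median 0.11, none called), and all above 0 in the 2nd set controls against the 1st (median 0.28, 3 called higher). The high dose comparison uses those 2nd set controls.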

How the data were processed

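RNA of the olfactory bulb was measured by RNA sequencing in 13 libraries, with an RNeasy mini kit and a TruSeq Stranded Total RNA kit per the labels' protocols. The submitters' processing notes name HISAT2 and mm10; no source used here names the counting program, annotation or strand setting. In 1 table the authors deposited raw counts and FPKM values per gene and library. FPKM served for levels between genes, and counts for all tests.

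Counts were fitted by the robust quasi-likelihood F test of edgeR 4.0.16 (R 4.3.3; normalization by TMM and the filter filterByExpr) in 1 model of 4 groups with 9 residual degrees of freedom. Benjamini-Hochberg adjustment ran over the 17467 genes kept, with calls at an adjusted p under 0.05. The SE of a log2 fold change is its size over the root of the F statistic. Contrasts were each dose against its own controls, the difference of these responses, and the control sets against each other. The FPKM-to-count ratio implied 1 length per gene, constant across libraries within a relative deviation of 3e-05 for 14313 genes with at least 20 counts in each library. Coordinates and strands came from GENCODE M21 and promoter windows from RefSeq (GRCm38.p6).

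Channel genes named are those called in any contrast, the 4 smallest p in each direction at each dose, and the 2 of highest mean FPKM per family; others are said to be chosen after their values were seen or are given for a library that stood apart. Some genes that this rule selects are not reported here. The members and lists were chosen with earlier results of these data known. The script was tested on data simulated for the high dose comparison. Of 50 genes changed 1.5-fold 23 were recovered, and of 50 changed 2-fold 40, while 10 unchanged genes were called. Absent calls thus say little about changes of 1.5-fold or less. Alternatives were DESeq2 1.42.0 (size factors; Wald test), limma 3.58.1 on log2(FPKM + 1), other count filters, a replicate block, separate fits and leaving out libraries. Within each group, all pairs of libraries differed by more than sampling noise.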

Additional observations from a re-analysis of the deposited data

Results flagged for a closer look

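Among 51 named channel genes the control group of the 1st set, the only group with 4 libraries, was searched for a library far from the other 3, by the gap to its nearest neighbour relative to the range of the group. Chance gives about 1 such case in 20 groups, and 3 of the 51 were found. Cacnb3 stood at 312.3 CPM in replicate 3 and at 271 to 276 CPM in the other 3 controls. Kcnh6 stood at 8.732 CPM in the same replicate and at 12.85 to 13.04 CPM in the others. Kcnma1, the large-conductance calcium-activated channel, stood at 226.3 CPM in replicate 4 and at 215 to 217 CPM in the others.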

How the results depend on the processing

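At the high dose the count of called channel genes was 2, and it became 1 with a stricter filter (every library at 1 CPM or more), 5 with DESeq2's Wald test, 1 with limma on log2(FPKM + 1) and 0 in a separate fit of the 2nd set; without 1 library it ran from 0 to 3. No named channel gene reversed its sign where it was called. At the low dose the count was 0 and in the difference of responses 0 under every alternative run; the separate fits cannot give that difference or the comparison of the control sets. Between the control sets the count of 28 ran from 12 to 32 without 1 library.

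For same-numbered libraries of the 1st set, deviations from the group means correlated at 0.00424, 0.0583 and 0.0117. In the 2nd set they correlated at 0.134, -0.151 and -0.341, and not every library correlated best with its own number. With so few libraries in a group, these values cannot decide whether the replicate numbers of the labels pair the libraries. With a replicate block, which leaves 4 residual degrees of freedom, 0 channel genes were called at the low dose, 0 at the high dose (Kcnh8 -0.93, adjusted p = 0.127; Kcna4 -0.46, adjusted p = 0.354) and 11 between the control sets; of all genes 5 were called at the high dose.

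Of 24 family medians, 27 of 192 values under alternatives moved by more than the spread between replicates. Without 1 library, the low dose medians ran from -0.0302 to 0.0404 for pore-forming voltage-gated potassium, 0.0109 to 0.114 for two-pore, -0.0524 to 0.0606 for potassium auxiliary, -0.0105 to 0.0874 for sodium alpha, -0.136 to 0.0462 for sodium beta, -0.0597 to 0.0556 for calcium alpha1, -0.00670 to 0.0413 for calcium beta and -0.0939 to -0.0160 for calcium gamma genes. At the high dose they ran from -0.0923 to 0.106 for inward rectifier, -0.249 to -0.0798 for potassium auxiliary, -0.123 to 0.0235 for sodium alpha, 0.0147 to 0.303 for sodium beta, -0.211 to 0.0499 for calcium alpha1, -0.101 to 0.0130 for two-pore, -0.0821 to 0.00799 for pore-forming voltage-gated potassium, 0.0406 to 0.177 for alpha2delta and -0.126 to -0.0572 for calcium gamma genes. Without both libraries of the 2nd set that stood apart (an alternative chosen after seeing the data) the high dose medians were -0.139 for two-pore, -0.0393 for potassium auxiliary, 0.167 for alpha2delta and -0.132 for gamma genes. The causes were not tested. Low counts limit Kcng3, Kcnk5 and Cacng6, and a gene near 1 CPM could change without being detectable at this depth.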
